A study of Mus musculus with 11 samples.

Results

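The regions described here are 100 kb tiles of the mouse genome in embryonic stem (ES) cells. Their share of the reads of tagged MacroH2A2 rose late, that is, after 3 hours of induction. Such a rise is relative to the rest of the library and need not be a gain in absolute amount. They were chosen by measured values: a tile of chromosomes 1 to 19 was a member where HA-Macro ChIP-Seq reads (p.p.m. of the library) were at least 1.4 times higher at 12 hours of doxycycline (Dox) than at 3 hours, with at least 100 reads in both libraries and outside the 1% of tiles with the most reads without Dox. Of 24731 tiles, 23768 were eligible and 1588 were members, which is 6.68% of those eligible. The 12 hour over 3 hour ratio of the members therefore describes the choice and is no finding, and it carries no test.

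The study followed the incorporation of tagged histone variants by pulse induction. KH2 ES cells (129 X C57bl/6) carried the M2rtTA transactivator at ROSA26 and a Tet-inducible HA-tagged MacroH2A2 or H3.3 cassette downstream of Col1a1, and were induced with 2 µg/ml Dox. Anti-HA ChIP-Seq covered uninduced HA-Macro ES cells and those given Dox for 3, 6 and 12 hours, HA-H3.3 ES cells after 3 and 6 hours, and HA-Macro mouse embryonic fibroblasts (MEFs), selected from chimeric embryos, after 3, 6 and 12 hours. Anti-MacroH2A2 ChIP-Seq, with an antibody against the protein itself and not the tag, is labelled as coming from untreated parental KH2 cells and untreated wild type MEFs, whereas the study's text describes such maps in the inducible HA-Macro lines without and with Dox. Whether these 2 libraries hold tagged protein therefore cannot be told from the sources used here, and they are called anti-MacroH2A2 throughout. All HA-Macro libraries rest on inducible lines that add tagged protein to the endogenous one. No uninduced MEF or HA-H3.3 library was among those used. Levels over no Dox, also those of MEFs and of HA-H3.3, are therefore always over the uninduced HA-Macro ES library.

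There was 1 library per condition (2 combined replicates in each anti-MacroH2A2 library), so no difference could be set against the spread between replicates and no test across samples was made. Libraries held 6485439 to 20540691 reads on chromosomes 1 to 19, X and Y, and the median member held 661 reads at 3 hours and 1091 at 12 hours. Intervals given below are exact 95% intervals for counting error only. The 3 hour HA-Macro ES library, on which every member depends, differed from the other HA-Macro ES libraries in its chromosome Y share: 0.130% of its reads lay there, where the no-Dox, 6 hour and 12 hour libraries had 0.0303%, 0.0337% and 0.0382%. The other ES libraries were nearer to it, at 0.107% and 0.0709% for HA-H3.3 (3 and 6 hours) and 0.106% for anti-MacroH2A2. The part of this in the choice of members was not tested.

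MacroH2A2 is a variant of histone H2A with a large globular macro domain, and it is usually described in compact or silenced chromatin, including the inactive X chromosome of female somatic cells. H3.3 is a variant of H3 that is exchanged independently of replication, mainly at active genes and regulatory elements, but also at telomeres. In a pulse experiment, early tagged signal marks sites of rapid exchange, and signal that builds up later marks slower incorporation.

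Members were divided by 1 sequence feature. Of them, 167 held a 1 kb window with at least 3 tandem copies of TTAGGG on either strand, the unit of the telomere repeat, and in these members the 1 kb window with the most reads took a median of 51.2% of the 12 hour reads of its tile. This share was over 10% in 148 of the 167, where it was in 0.879% of the other eligible tiles. Its lowest value was 2.06%, so the rest of the 167 were spread like other tiles. Such windows are rare, at 372 of 2472353 autosomal windows (0.0150%).

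The other 1421 members held no such window and are called broad members here. Their reads were mostly spread over the tile: the window with the most reads took a median of 3.33% of the 12 hour reads, close to the 2.90% of the other eligible tiles. Among the 1421 broad members, 50 had over 10% of their reads in 1 window, where 195 of the 22180 other eligible tiles (0.879%) did. In 13 of these 50 the window held at least 12 tandem copies of TG or CA, which 8.27% of all 1 kb windows hold. As examples, 250 bases from the centre of each of the 2 longest runs of members are printed beside the leading TG array, with CpG in capitals in the former and TG in the latter.
TG array, chr1:167689750-167689899, plus strand: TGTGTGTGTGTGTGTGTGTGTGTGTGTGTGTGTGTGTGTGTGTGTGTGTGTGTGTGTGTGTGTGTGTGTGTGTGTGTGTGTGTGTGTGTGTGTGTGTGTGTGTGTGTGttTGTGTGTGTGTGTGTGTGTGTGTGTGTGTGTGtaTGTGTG
Centre of the Ajap1 run, chr4:152799876-152800125, plus strand: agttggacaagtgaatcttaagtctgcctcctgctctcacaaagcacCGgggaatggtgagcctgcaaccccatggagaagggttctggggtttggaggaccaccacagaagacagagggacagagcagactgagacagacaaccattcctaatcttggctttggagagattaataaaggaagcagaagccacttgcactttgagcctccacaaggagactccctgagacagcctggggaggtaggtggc
Centre of the Rnf182 and Cd83 run, chr13:44199876-44200125, plus strand: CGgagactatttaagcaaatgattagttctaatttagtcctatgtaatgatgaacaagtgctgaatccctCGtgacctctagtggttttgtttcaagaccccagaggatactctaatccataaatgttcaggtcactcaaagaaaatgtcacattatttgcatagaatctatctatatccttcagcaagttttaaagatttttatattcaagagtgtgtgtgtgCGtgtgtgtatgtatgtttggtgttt
The Ajap1 stretch has 52.8% GC and 1 CpG, and the Rnf182 and Cd83 stretch has 35.2% GC and 3 CpGs. Neither holds a copy of the telomere unit. The tiles of the broad members had a median of 45.8% GC, so these stretches are examples and not typical sequence.

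Before induction the members were close to the other tiles, with a median of 38.9 p.p.m. per tile in the no-Dox library against 37.3 in the other eligible tiles. Their median went from 37.98 p.p.m. at 3 hours through 51.6 to 57.9 at 12 hours, and that of the other eligible tiles at 31.1, 33.4 and 33.5. As a group, the members took 6.27% of all reads in the 3 hour library (6.26 to 6.28), 8.55% in the 6 hour library (8.54 to 8.57) and 9.75% in the 12 hour library (9.73 to 9.76). The median ratio of 12 over 3 hours was 1.50, with a highest value of 2.64, against 1.03 over all eligible tiles. The counting interval of the ratio, from the same counts as the choice, lay wholly at or above 1.4 in 595 members and reached below it in the rest. When each distinct interval was counted 1 time in every library, 1586 tiles passed the rule and 1451 of them were members.

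The 6 hour library took no part in the rule. Over the no-Dox library it was higher in 1503 of 1588 members (94.6%), where 37.9% of the other eligible tiles were, with a median of 0.41 on the log2 scale against −0.13 in the other eligible tiles. At least 1.4-fold excess at 6 hours over no Dox was found in 632 members (39.8%), where 9.7% of all eligible tiles had it. These values were not taken at equal GC content, with which the 6 hour level also goes. At equal GC the members exceeded the others by 0.39 from 40 to 42% GC, 0.21 from 44 to 46% and 0.099 from 48 to 50%. From 50 to 56% GC the medians were 0.591 in members and 0.590 in the others. Below 40% the difference was at least 0.61, in classes of 5, 21 and 45 members. At 6 hours over no Dox the medians were 0.39 for the broad members and 0.46 for those with a repeat window, but the later steps were unlike. From 6 to 12 hours, broad members gained a further 0.15 (median log2) and none of the 1421 reached 1.4-fold, whereas members with a repeat window gained 0.48 and 83 of 167 reached 1.4-fold. Outside the members, 2 tiles reached it. From 3 to 6 hours the order was reversed, with medians of 0.44 for broad members and 0.28 for those with a repeat window. The rule used the 3 and 12 hour libraries, so these steps are a description of the members only.

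**Figure D1:**
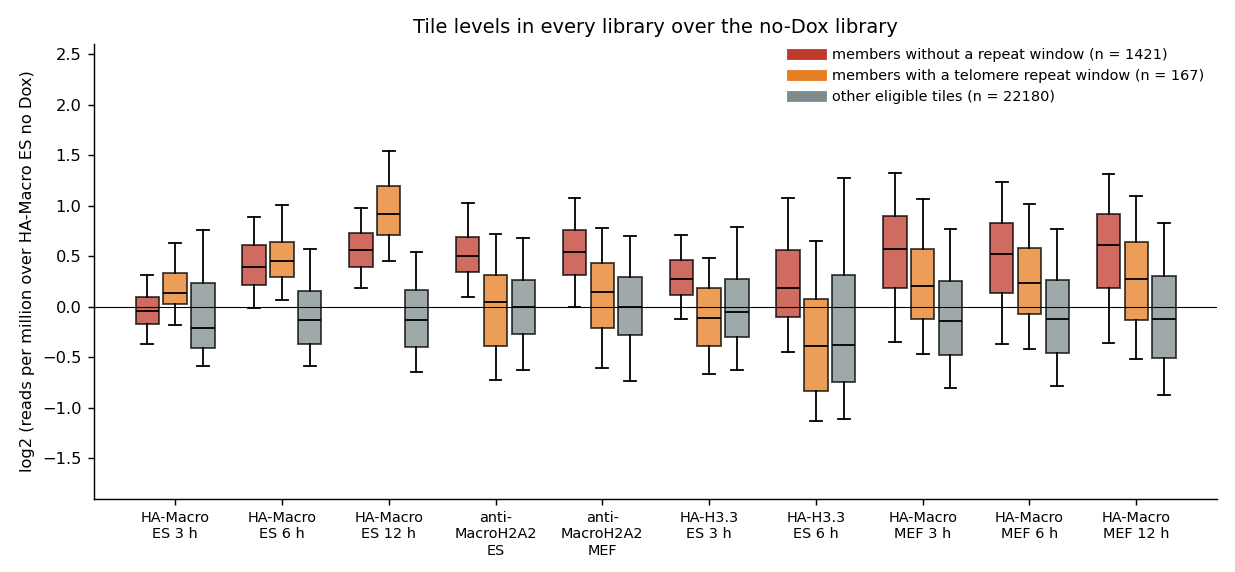
Level of each tile over the no-Dox library (log2 of p.p.m. ratio, y axis) in the other 10 libraries (x axis) for members without and with a telomere repeat window and for other eligible tiles. Boxes show quartiles and median and whiskers the 5th and 95th percentiles over tiles; broad members (medians 0.50 and 0.54) lie above the other tiles in both anti-MacroH2A2 libraries. For members with a repeat window, the HA-H3.3 and anti-MacroH2A2 boxes are divided by a library that keeps more repeated intervals and cannot be read as levels.

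Summed over all 372 autosomal repeat windows, members or not, anti-HA reads rose in ES cells from 1049 p.p.m. without Dox through 3343 and 4579 (3 and 6 hours) to 9451 at 12 hours. The 12 hour level was 2.83 times that at 3 hours and 9.01 times that without Dox, and it made up 0.945% of the library. In HA-Macro MEFs the same windows held 1402, 1655 and 1498 p.p.m. at 3, 6 and 12 hours, so that the ES library at 12 hours was 6.31 times its MEF counterpart, and 1.49 times with each distinct interval counted 1 time. The anti-MacroH2A2 libraries held 169 p.p.m. each, in ES cells and in MEFs, and HA-H3.3 held 199.7 at 3 hours and 292 at 6 hours. These last 4 libraries keep repeated intervals at 0.462% to 0.693% of reads and are 400 bp long, against 3.27% to 6.00% and 150 bp in the HA-Macro libraries, so their levels at repeats cannot be set beside those of the HA-Macro libraries.

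The rise at telomere repeats was much smaller in distinct intervals. With each distinct interval counted 1 time, the windows held 910, 970 and 1038 p.p.m. at the 3 times, a ratio of 1.14 between the last and the first. How many distinct positions these windows could give was not measured. Reads with several locations were placed at random at 1 of them by the mapper, so that a window of this kind can collect reads from other telomere repeats in the genome. Amplified copies of a fragment and separate fragments cannot be told apart in these files.

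**Figure D2:**
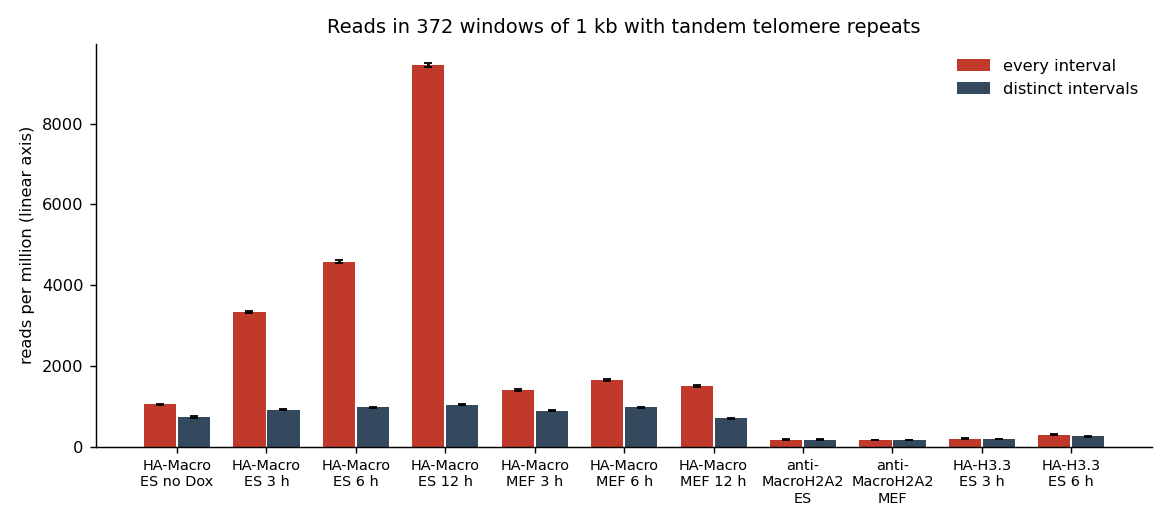
Reads (p.p.m., linear y axis) in the 372 autosomal 1 kb windows with tandem telomere repeats in each of the 11 libraries (x axis), counting every interval (red) or each distinct interval 1 time (dark blue), with exact 95% Poisson intervals for counting error. The red bars climb from 1049 without Dox to 9451 at 12 hours in ES cells and the dark blue bars from 735 to 1038.

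The ends of chromosomes 5 and 11 show the counts at single sites. The last window of chromosome 5 held 142 reads before Dox and 775, 1091 and 2428 after 3, 6 and 12 hours of it, and 161, 212 and 380 in MEFs at 3, 6 and 12 hours. It took 90.2% of the 12 hour reads of its tile, whose ratio was 2.55 with the repeat windows counted and 1.17 with them left out. The last window of chromosome 11 held 234, 1144, 1609 and 3641 reads in the same 4 ES libraries and 310, 319 and 535 in MEFs, and the ratio of its tile was 2.39 with the repeat windows counted and 0.896 with them left out. In both windows the ES counts climbed at each step. The MEF counts at 12 hours come from the deepest of the 11 libraries.

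Not every tile with telomere repeats was a member. Of 333 eligible tiles with such a window, 167 (50.2%) were members, and their windows held a median of 12 units, against 6 in the 166 others. With the repeat windows and 1 kb on each side left out, the median ratio of the 167 members fell from 1.71 to 1.14 and 35 of them stayed members. The rule then gave 1456 members, of which 1455 were among the 1588.

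The members were GC-rich. Their median GC content was 45.6% against 41.1% in the other eligible tiles, and they held a median of 10.7 CpGs per kb against 7.51. Members were 0.992% or fewer of the eligible tiles below 40% GC, 2.35% from 40 to 42%, 14.0% from 44 to 46%, 239 of 1195 tiles from 48 to 50% and 16.2% from 50 to 56%. Members with a repeat window were less GC-rich, with a median of 42.6%, than the broad members, with 45.8%. GC content also went with the level in every library: across 23767 eligible tiles, the rank correlation with GC was 0.70, 0.77 and 0.84 in HA-Macro ES cells (3, 6 and 12 hours), 0.82 for anti-MacroH2A2 in ES cells and 0.33 without Dox. These tiles share each library's depth and base composition. When the ratio was divided by its median at equal GC content, 566 tiles passed the rule, of which 565 were among the 1588, and their GC content still exceeded that of the others by 4.69 percentage points. With the 6 hour library in place of 3 hours in the rule, which leaves 85 tiles, the difference was −0.57.

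Among GC-rich tiles, the members held fewer genes than the others. Over all tiles the shares differed mainly where gene starts were many: 43.2% of members and 42.8% of the other eligible tiles had no gene start, and members were 6.74%, 7.74% and 7.63% of the tiles with 0, 1 and 2 gene starts, 5.73% of those with 3 or 4, 2.84% of those with 5 to 9 and 1 of the 147 with 10 or more. In mammals GC-rich chromatin is usually gene-rich, and among the other eligible tiles gene starts per tile climbed from 1.32 at 40 to 42% GC to 4.01 at 50 to 56%. Members held 0.53 and 2.06 gene starts per tile in the same classes, and fewer than the others in each of the 7 classes from 38% GC upwards. Over all GC contents they held 1.12 gene starts per tile against 1.44, and protein-coding genes covered a median of 8.70% of a member against 30.3% of another eligible tile. Put the other way round, of the GC-rich tiles (at least 44%) without a gene start 27.9% were members, of those with 1 gene start 19.96%, of those with 2 gene starts 15.9%, and of those with 5 or more 3.44%.

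**Figure D3:**
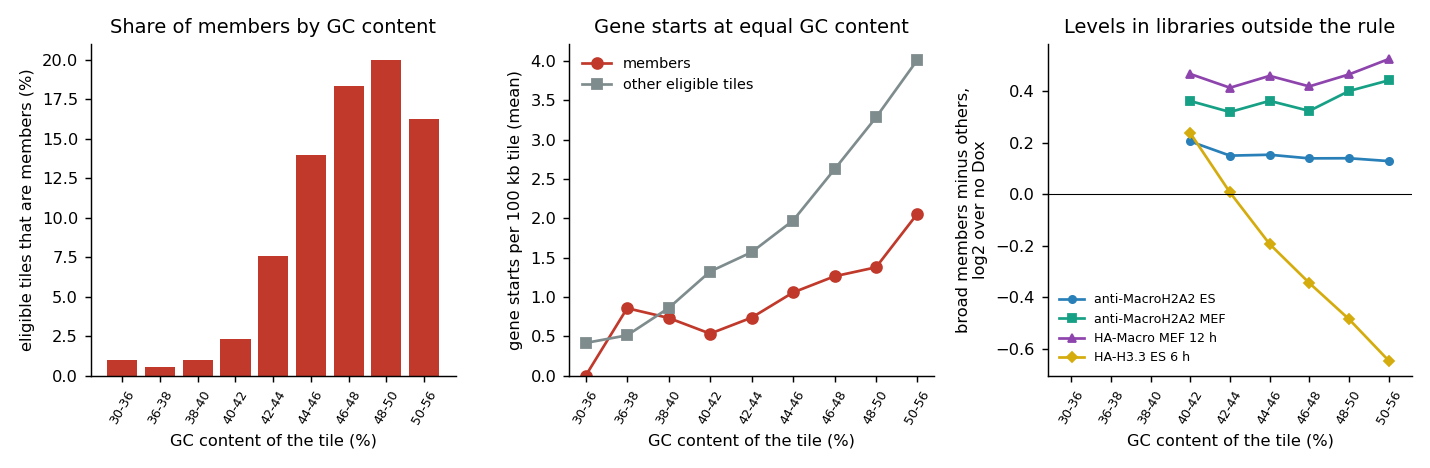
Left, share of eligible tiles that are members (%, bars) by GC content class (%, x axis in all panels); middle, mean gene starts per 100 kb tile in members and other eligible tiles; right, difference of the class medians (log2 over no Dox) between broad members and other tiles, all without a repeat window, in 4 libraries that the rule did not use, for classes with at least 20 broad members. Members hold fewer gene starts than the others from 38% GC upwards, and the HA-H3.3 level of broad members at 6 hours lies below that of the others above 44% GC.

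Anti-MacroH2A2 levels were higher in the members than elsewhere in both cell types. Over the no-Dox library, anti-MacroH2A2 in ES cells stood at a median of 0.47 (log2) in members against −0.01 in the other eligible tiles, and 762 of the 1586 members with at least 20 reads in both libraries exceeded 1.4-fold (48.05%), where 13.5% of all tiles did. Anti-MacroH2A2 in MEFs stood at 0.51 against 0.00, with 825 members past 1.4-fold (52.0%), where 15.8% of all tiles were. In the broad members alone the medians were 0.50 in ES cells and 0.54 in MEFs, and no separate level is given for members with a repeat window, since the libraries keep repeated intervals differently. With the 6 hour library in place of 3 hours in the rule, the ES difference from the other tiles was −0.18 instead of 0.48. It then rested on 85 tiles that each held a repeat window, so for the same reason it cannot be read as a level. Since GC content goes with the level in each of these libraries, the comparison was repeated within GC classes. This was done without any tile that holds a repeat window. From 40% GC upwards, the broad members exceeded the others at equal GC by 0.13 to 0.21 in ES cells and by 0.32 to 0.44 in MEFs. The 3 classes below 40% GC held 0, 1 and 18 broad members, and in the last of them, from 38 to 40%, the differences were 0.23 and 0.37.

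Between the cell types the members lay close to the other tiles when GC content was left aside, although at equal GC from 40% upwards their excess was larger in MEFs, as given above. The ratio of anti-MacroH2A2 in MEFs over ES cells had a median of 0.02 in members and 0.01 in the others, and 73 members exceeded 1.4-fold (4.60%), where 6.45% of all tiles did. HA-Macro reads in MEFs were above those of the uninduced ES cells in most members from the first time point on. Their medians over that ES library were 0.53, 0.49 and 0.56 at 3, 6 and 12 hours, against −0.15, −0.12 and −0.12 elsewhere. Set beside its ES counterpart, the 3 hour MEF library had a median of 0.53 in the members and the 12 hour MEF library one of −0.03, with both denominators used by the rule. From 3 to 12 hours the MEF ratio had a median of 0.02 in members and 0.01 elsewhere. At 1.4-fold 0 members passed, but only 0.0126% of all tiles did, so this count cannot set the members apart. The steps differed: from 3 to 6 hours the medians were −0.044 in members and 0.013 elsewhere. From 6 to 12 hours they were 0.066 and −0.0012, and 75.9% of members rose, where 49.5% of the other eligible tiles did.

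HA-H3.3 was lower in the broad members than in other tiles of equal GC content above 44% GC, again without tiles that hold a repeat window. Over no Dox, HA-H3.3 at 3 hours stood at a median of 0.25 in members against −0.05 elsewhere, with 317 of 1586 members past 1.4-fold (19.99%), where 14.5% of all tiles were. At equal GC the order turned over: between 48 and 50% GC the broad members differed from the others by −0.18 at 3 hours and −0.49 at 6 hours, and between 50 and 56% by −0.27 and −0.65, whereas between 40 and 42% they lay 0.085 and 0.24 above. From 3 to 6 hours HA-H3.3 changed by a median of −0.08 in members and −0.26 elsewhere (a difference of 0.18, which was −0.086 with the 6 hour library in place of 3 hours in the rule), and 67 members rose at least 1.4-fold (4.22%), where 6.86% of all tiles did. The medians were −0.06 in broad members and −0.25 in members with a repeat window. These changes were not taken at equal GC. Between 48 and 50% GC, the median level over no Dox went from 0.48 to 0.46 in broad members. In the others of that class it went from 0.67 to 0.95. Between 40 and 42% GC it went from −0.00062 to −0.18 in broad members and from −0.085 to −0.42 in the others.

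Many members lay side by side. Of 1588 members, 830 stood alone and the rest (47.7%) touched another member, forming 173 runs of 2 tiles and 110 runs of 3 or more. The share that touched another was 29.5% when the ratio was divided by its median at equal GC content, and 2.35% with the 6 hour library in place of 3 hours. Members with a repeat window stood alone in 73.1% of cases and the broad members in 49.8%. The share of eligible tiles that were members ranged from 3.22% on chromosome 14 to 12.7% on chromosome 8, with 10.3% on chromosome 5 and 9.62% on chromosome 9. By distance from the far end of the chromosome, mouse chromosomes being acrocentric, it was 8.72% in the last 2 Mb, 17.3% from 2 to 10 Mb, 9.30% from 10 to 30 Mb and 5.23% farther inside, while median GC was 41.8%, 44.7%, 43.2% and 40.9% in these zones.

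The 110 runs of 3 or more tiles were bordered by lower MacroH2A2 levels in libraries outside the rule. Their 412 tiles had a median anti-MacroH2A2 level in MEFs of 0.58 over no Dox, which was 0.31 in non-member tiles adjacent to them and 0.17 at a distance of 0.2 Mb. HA-Macro in MEFs at 12 hours dropped from 0.60 to 0.25 and 0.09 over the same steps, and anti-MacroH2A2 in ES cells from 0.59 to 0.49 and 0.39. HA-H3.3 at 6 hours went the other way at the border, from 0.30 inside the runs to 0.59 in the adjacent tiles. Farther out it was lower again, at 0.47 at 0.2 Mb and between 0.29 and 0.45 from 0.3 to 1 Mb. Gene starts climbed from 0.86 per tile inside to 1.63 in the adjacent tiles and 1.82 at 0.2 Mb, although GC content hardly moved, from a median of 46.7% to 46.4% and 45.6%. At 3 hours, which the rule used, HA-Macro stood at 0.01 inside the runs and 0.26 in the adjacent tiles.

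**Figure D4:**
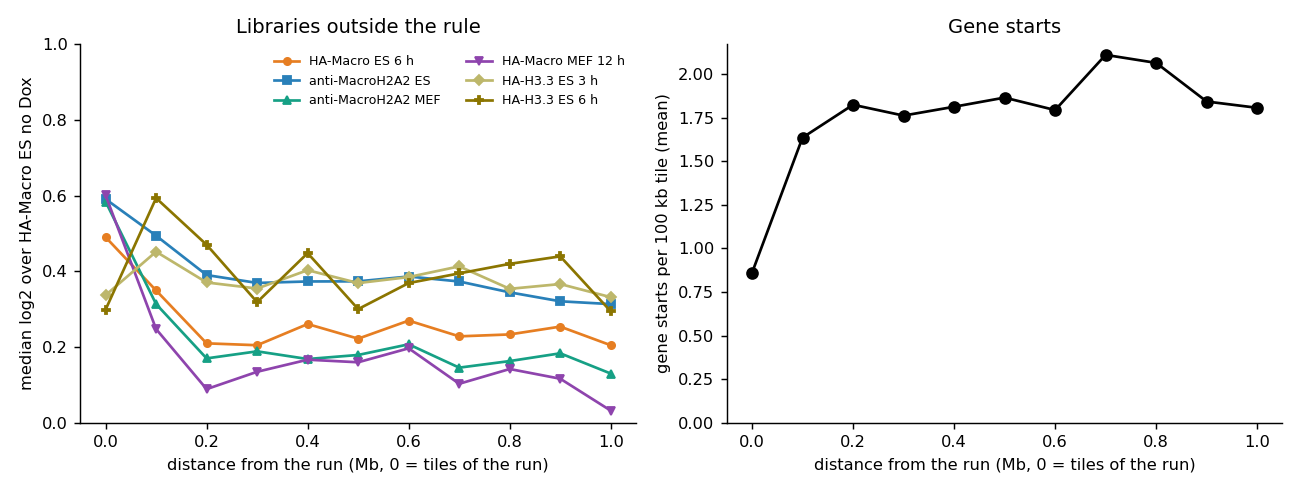
Left, median level over no Dox (log2, y axis) in the tiles of the 110 runs of 3 or more members (distance 0) and in non-member tiles up to 1 Mb on either side (x axis, Mb), in 6 libraries that the rule did not use; right, mean gene starts per 100 kb tile. MacroH2A2 levels drop at the border in both cell types, HA-H3.3 at 6 hours rises from 0.30 to 0.59, and gene starts rise from 0.86 to 1.63 per tile. Beyond the adjacent tiles HA-H3.3 at 6 hours lies between 0.29 and 0.47.

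The longest runs held 10 tiles each. The run at chr4:152300001-153300000 (mm9; 49.1% GC) held 6 gene starts and 1 protein-coding gene, Ajap1 (chr4:152747330-152856939, minus strand), an adherens junction-associated membrane protein. Per tile it held 39.5 p.p.m. before Dox and 42.6, 58.5 and 72.0 after 3, 6 and 12 hours, a ratio of 1.69 (1.64 to 1.74). Of its tiles, 1 carried a telomere repeat window that took 57.5% of that tile's reads, and the ratios of the 10 tiles ranged from 1.41 to 2.16. Their mean was 1.61 with distinct intervals. The levels of the run include that window, which held 115 of its 4947 reads without Dox. Anti-MacroH2A2 was 0.71 above no Dox in ES cells and 0.25 above in MEFs, a MEF over ES difference of −0.47, and HA-Macro in MEFs at 12 hours lay at −0.33. In MEFs the 2 measures thus lay on opposite sides of the uninduced ES library.

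The run at chr13:43700001-44700000 (44.9% GC) had more anti-MacroH2A2 signal in MEFs than in ES cells. It held Rnf182, a ubiquitin ligase, and Cd83, a surface protein of mature dendritic cells, among 4 gene starts. Of its tiles, 1 held a telomere repeat window, and no window of the run took more than 6.43% of a tile's 12 hour reads. Its level per tile was 37.6 p.p.m. before Dox and 37.5, 53.6 and 58.1 after 3, 6 and 12 hours (ratio 1.55, 1.50 to 1.597), with 72.9, 71.5 and 73.7 p.p.m. in MEFs at 3, 6 and 12 hours. Anti-MacroH2A2 was 0.51 above no Dox in ES cells and 0.87 above in MEFs, and HA-Macro in MEFs at 12 hours was 0.97 above. HA-H3.3 stood at 0.23 at 3 hours and 0.36 at 6 hours.

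**Figure D5:**
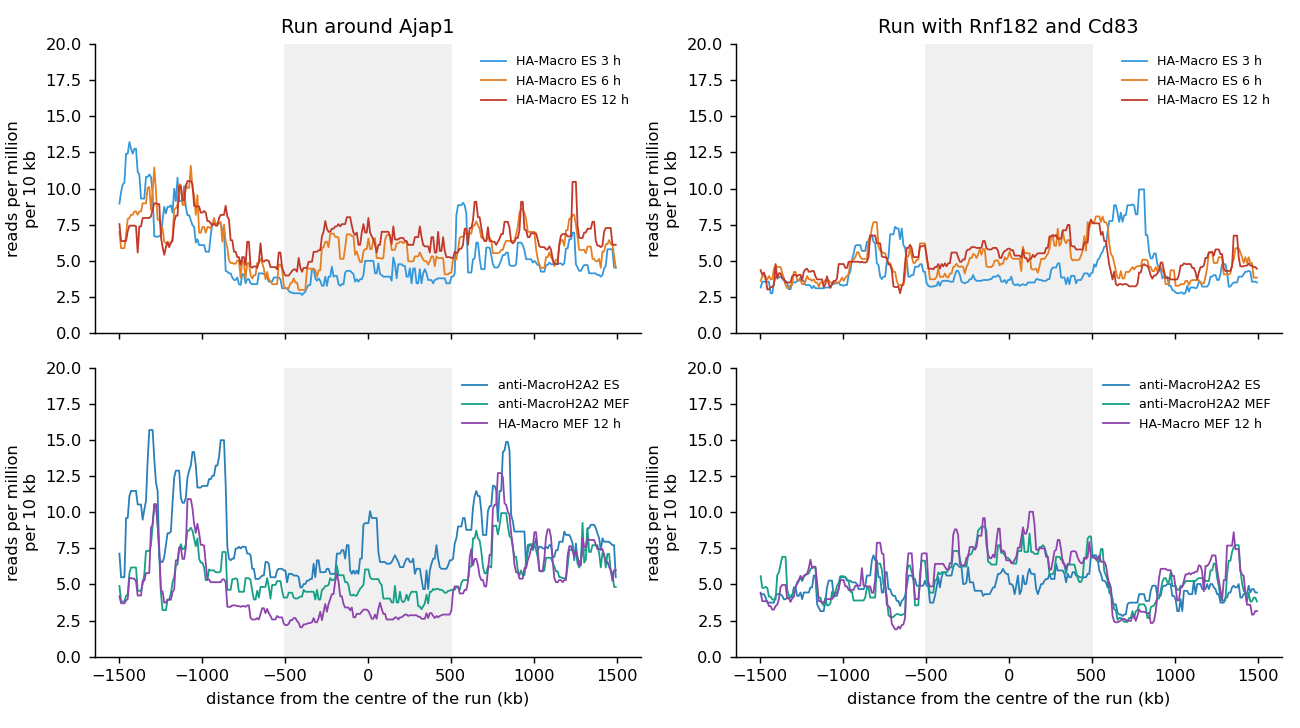
Reads (p.p.m. per 10 kb, running median over 5 bins, linear y axis) across the 2 longest runs (grey) and 1 Mb on either side, by distance from the run's centre (kb, x axis), in HA-Macro ES cells at 3, 6 and 12 hours (top) and in 3 libraries that the rule did not use (bottom). The 12 hour line lies above the 3 hour line throughout both runs. Over the whole Ajap1 run, HA-Macro in MEFs at 12 hours (31.5 p.p.m. per tile) was below anti-MacroH2A2 in ES cells (64.7) and MEFs (46.9). Over the whole Rnf182 and Cd83 run it was above anti-MacroH2A2 in ES cells (73.7 against 53.5). The order can differ in single bins and in the flanks.

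The other 3 of the 5 longest runs lay on both sides of no Dox for HA-Macro in MEFs. The run of 8 tiles at chr5:111900001-112700000 (49.95% GC) held the lens crystallin genes Crybb1 and Cryba4, the uncharacterized C130026L21Rik and 1 tile with a telomere repeat window. Its level rose from 43.1 p.p.m. per tile at 3 hours to 61.3 at 6 hours and 74.5 at 12 hours (ratio 1.73, 1.67 to 1.78), and it had the highest anti-MacroH2A2 levels of the 5, at 1.03 over no Dox in ES cells and 1.24 in MEFs. The run of 7 tiles at chr2:169200001-169900000 lay largely over Tshz2, a zinc finger transcription factor gene of 438646 bp, with Gm11011, 1700101G07Rik and AY702102, and went from 38.1 to 53.9 and 59.0 p.p.m. (ratio 1.55, 1.49 to 1.61). The run of 7 tiles at chr17:48600001-49300000 held Lrfn2, a synaptic adhesion protein gene, and went from 36.2 to 47.0 and 54.7 p.p.m. (ratio 1.51, 1.46 to 1.57). HA-Macro in MEFs at 12 hours lay at 1.42 over no Dox in the crystallin run and 0.46 in the Tshz2 run, but at −0.35 in the Lrfn2 run. The MEF over ES difference of anti-MacroH2A2 was 0.21, −0.088 and −0.20 in these 3 runs.

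Over all 110 runs, HA-Macro in ES cells at 6 hours was above no Dox in 110 and anti-MacroH2A2 in ES cells in 109, where 37.9% and 49.3% of single tiles outside the members were. HA-Macro in MEFs at 12 hours was above no Dox in 91 and below it in 19, with a range of −0.66 to 1.54, where 42.4% of single tiles outside the members were above. These shares set runs of several tiles beside single tiles of lower GC content. The median was 46.7% in the tiles of the runs and 41.1% in the other eligible tiles. In non-member tiles adjacent to the runs, at 46.4% GC, the medians were also above no Dox. They were 0.35 for HA-Macro in ES cells at 6 hours and 0.49 for anti-MacroH2A2 in ES cells, against 0.49 and 0.59 inside. Anti-MacroH2A2 was higher in MEFs than in ES cells in 57 runs and lower in 53, and 3 and 4 of these passed 1.4-fold. In no run did HA-Macro in MEFs change by 1.4-fold from 3 to 12 hours, and only 0.0126% of all single tiles rose that much.

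Outside these runs, the members with the highest ratios often held telomere repeats, with such a window in 6 of the first 10. The highest ratio, 2.64 (2.45 to 2.86), belonged to chr15:21500001-21600000, a tile with no gene start and 19.3% of its length in a protein-coding gene, with 610 reads before Dox and 880, 1448 and 2517 after 3, 6 and 12 hours, of which last 81.8% lay in 1 window. The chromosome 5 and 11 ends came next, the latter with the predicted gene Gm9631. The repeat tiles with known genes were chr14:69700001-69800000 (ratio 2.22), with the homeobox gene Nkx2-6, and chr1:195000001-195100000 (2.15), with Hsd11b1, the enzyme that regenerates active glucocorticoid, Traf3ip3 and G0s2. The other of the 6 was chr2:57400001-57500000. With distinct intervals the gain of the leading tile was gone (0.996), as was that of the chromosome 11 end (0.992), and the ratios of the other 4 were 1.06 (chromosome 2), 1.14 (chromosome 5 end), 1.19 (chromosome 14) and 1.24 (chromosome 1).

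The other 4 of these 10 gained without telomere repeats, and distinct intervals gave them ratios of 1.86 to 2.23. The tile at the start of Fhod3, a formin of heart muscle, and Mocos, the molybdenum cofactor sulfurase, held 568, 1015, 2359 and 2549 reads in the no-Dox, 3, 6 and 12 hour libraries (ratio 2.32, 2.16 to 2.50), with 31.0% of the last in 1 window. The tile at the start of Abcc9, a subunit of ATP-sensitive potassium channels, held 542, 692, 1192 and 1584 reads (2.12, 1.93 to 2.32), with 32.8% in 1 window. The tile chr4:139400001-139500000, with no protein-coding gene start, held 548, 719, 1312 and 1747 reads (2.25, 2.06 to 2.45), and the gene-free tile chr8:111100001-111200000 held 499, 628, 1314 and 1442 (2.12, 1.93 to 2.33). In the last 2, no window took more than 7.33% of the reads. In these 4 tiles anti-MacroH2A2 in ES cells was 0.40 to 1.03 over no Dox.

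At the threshold, members and other tiles could not be told apart. The members just inside lay on chromosome 16 at Dgkg, a diacylglycerol kinase gene (684 reads at 3 hours and 1036 at 12 hours), on chromosome 19 at Pnlip, the pancreatic lipase gene (511 and 774), and in a gene-free tile on chromosome 13 (474 and 718). The tiles just outside lay on chromosome 4 (918 and 1390), 12 (568 and 860) and 5 (644 and 975), without protein-coding gene starts. All 6 ratios were within rounding of the threshold, with intervals from 1.25 at the lowest to 1.58 at the highest.

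Of 20806 protein-coding gene starts in eligible tiles, 985 (4.73%) lay in members. Leaving aside families picked on their values, keratin genes had the largest share of the families counted by symbol. Of 51 starts of Krt genes, which encode the intermediate filaments of epithelia and hair, 23 (45.1%) lay in members. Of 46 keratin-associated protein (Krtap) genes, 0 did, and how many tiles hold them was not counted. The 23 Krt genes share 6 tiles in the 2 keratin clusters of chromosomes 11 and 15, so they are no more than 6 measurements. The tile with Krt19, Krt9 and Krt14 held 42.8 p.p.m. before Dox and 47.9, 74.99 and 80.3 after 3, 6 and 12 hours, with 58.6, 54.1 and 58.9 in MEFs. The tile with Krt8 and Krt18, the keratins of simple epithelia, held 40.9, 48.6, 70.4 and 74.7 p.p.m. in ES cells and 81.8, 84.3 and 85.9 in MEFs. Anti-MacroH2A2 in ES cells was 0.35 to 0.95 over no Dox in the 6 tiles, but also 0.08 to 0.84 in the 9 keratin tiles that were not members.

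Most other families of that choice had shares below the 4.73% of all protein-coding starts. Olfactory receptor genes (Olfr) had 14 of 1106 starts in members (1.27%), vomeronasal receptor genes 4 of 321, Zfp zinc finger genes 4 of 349, and ribosomal protein genes 1 of 85 (Rpl11). Histone (Hist), protocadherin (Pcdh), beta-defensin (Defb), bitter taste receptor (Tas2r), Ugt, Mup, Prl and Klr genes had 0 of 67, 34, 41, 35, 20, 21, 27 and 28. Hox genes had 1 of 40, Hoxb13, the most 5′ gene of its cluster. Above that share lay the cadherins, with 4 of 23 (17.4%; Cdh4, Cdh13, Cdh17 and Cdh22), and, close to it, Cyp2 and Cyp3 genes with 4 of 57 (7.02%), Serpin genes with 3 of 59 (5.08%) and interferon-named genes with 1 of 21 (4.76%; Ifnar2, an interferon receptor chain). Immunoglobulin and T cell receptor segments had 8 of 469, all of them kappa light chain V segments, Gm-numbered genes 92 of 1764 (5.22%), and genes of at least 500 kb 8 of 188. Clustered neighbours can share tiles in these families too, so their starts are not separate measurements. The shares were not taken at equal GC content.

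Some families were picked only after their values were seen, so their shares are a description and support nothing. They were the whey acidic protein domain genes (Wfdc, 12 of 16 starts), the Cd300 receptors of myeloid cells (6 of 8), the trace amine receptors (Taar, 5 of 15), the kallikreins (Klk, 7 of 28), the crystallins (4 of 16) and the claudins of tight junctions (Cldn, 1 of 26), where 4.73% of all protein-coding starts lay in members. Neighbours share tiles here as well.

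Genes that mark the identity of these cells were too few to set apart from the 4.73% of all protein-coding starts. Of 22 starts of pluripotency genes, 0 lay in members, and the median ratio of their tiles was 0.909, with Tcl1 highest at 1.31. Of 24 fibroblast and mesenchymal genes, 1 lay in a member, Thy1, a surface glycoprotein of fibroblasts and thymocytes, with a ratio of 1.51, and the median was 1.03. Of 36 starts of synaptic and adhesion genes of neurons, 0 lay in members, with a median of 1.01. The median tile ratio over all protein-coding gene starts was 0.963.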

How the data were processed

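The members and the gene families and lists were chosen with earlier results of these data known. The 11 libraries were ChIP-Seq from mouse ES cells and MEFs, 1 per condition as given by the sample labels. Alignment by the authors was to mm9 with Bowtie 1.0 (submitters' processing notes), after identical reads had been pooled; a read that fitted several places was given 1 of them at random, and reads were then lengthened. The deposited files hold 1 interval per mapped read, with no strand, sequence or count, of 150 bp in the HA-Macro libraries and 400 bp in the others.

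Interval midpoints were counted in tiles of 100 kb and windows of 1 kb and scaled to p.p.m. of reads on chromosomes 1 to 19, X and Y, with Python 3.11.15, numpy 2.4.6, pandas 2.3.3 and scipy 1.17.1. Ratios other than 12 over 3 hours needed at least 20 midpoints in both libraries. Base composition and sequences came from the mm9 genome and gene starts from its GENCODE annotation. Intervals of ratios and of the members' share of a library were exact binomial intervals. Those of the reads in repeat windows were exact Poisson intervals, and all were at 95%. The regions named were the 5 longest runs, the 10 tiles with the highest ratio outside them, and 3 tiles on either side of the threshold, with the protein-coding genes starting in them. The rule was also run on simulated counts with set folds and counting error only. That run could not cover differences between libraries. Telomere repeat windows were defined after seeing the data. The sequences of these windows are not reported here.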

Additional observations from a re-analysis of the deposited data

How the results depend on the processing

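With 1 library per condition, all values rest on single libraries, no library could be left out, and intervals cover counting error only. No paired analysis was possible because each condition has 1 library. The number of members was 2913 at a fold of 1.3, 808 at 1.5, 566 after dividing the ratio by its median at equal GC content, and 85 with the 6 hour library in place of 3 hours, of which 83 were among the 1588. It lay between 1456 and 1876 under the other 7 alternatives, of which leaving out the telomere repeat windows was chosen after seeing the data.

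Differences below are members minus other eligible tiles and were not taken at equal GC content. That of GC content (4.47 percentage points) was 4.69 with distinct intervals, 4.13 at 1.3, 4.89 at 1.5, 4.21 with thinned libraries, 4.69 with the GC correction, 4.73 without repeat windows, and −0.57 with the 6 hour library in place of 3 hours. Gene starts per member (1.12) were 1.03 at 1.5, 0.973 with the GC correction and 0.835 with the 6 hour library in place of 3 hours. The share of members in runs (47.7%) was 50.3% with distinct intervals, 59.4% at 1.3, 38.9% at 1.5, 44.9% with thinned libraries, 29.5% with the GC correction and 2.35% with the 6 hour library in place of 3 hours.

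On the log2 scale, the 6 hour level over no Dox (0.54) was 0.51 with distinct intervals, 0.46 at 1.3, 0.61 at 1.5, 0.48 with thinned libraries, 0.63 with the GC correction, 0.62 with the 6 hour library in place of 3 hours, where the rule uses it, and 0.63 without division by no Dox. Anti-MacroH2A2 in ES cells over no Dox (0.48) was 0.50 with distinct intervals, 0.45 at 1.3, 0.51 at 1.5, 0.46 with thinned libraries, 0.50 with the GC correction, 0.51 without repeat windows, 0.54 without division by no Dox and −0.18 with the 6 hour library in place of 3 hours. Anti-MacroH2A2 in MEFs over ES cells (0.01) was 0.16 with the 6 hour library in place of 3 hours. HA-H3.3 at 6 over 3 hours (0.18) was 0.13 at 1.3, 0.20 at 1.5, 0.14 with thinned libraries and −0.086 with the 6 hour library in place of 3 hours. HA-Macro in MEFs at 12 over 3 hours (0.01) was 0.021 at 1.3, −0.0018 at 1.5, −0.011 with the GC correction and 0.028 with the 6 hour library in place of 3 hours. Replacing the 3 hour library thus changed the sign of 3 of these differences and left 85 tiles, each with a telomere repeat window. Of the 3, that of anti-MacroH2A2 over no Dox cannot be read as a level in such tiles, since the libraries keep repeated intervals differently. The cause of the other shifts was not tested.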
